A study of Mus musculus with 13 samples.

Results

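The BCL2 family was followed through 10 genes in mouse haematopoietic stem cells (HSCs), the marrow cells that renew themselves and give rise to blood. They were chosen by name, with earlier results of these data known. They comprise 4 survival genes (Bcl2, Mcl1, Bcl2l1 and Bcl2a1b), 2 effectors (Bax and Bak1) and 4 BH3-only genes (Bcl2l11, Bad, Bid and Bmf). All 10 were found among the 13201 genes of the deposited table after its Ensembl identifiers were matched to GENCODE M21 symbols. The study sequenced polyadenylated RNA from pools of 100 sorted cells by Smart-seq2, which copies whole transcripts from very small amounts of RNA. Its groups were 3 libraries of MEK1-deficient (KO) HSCs from mice treated with 5-FU (A5, A6 and A8), 4 of wild-type (WT) HSCs from mice treated with 5-FU (A2, A3, A4 and D4), 3 of untreated KO HSCs (D4, D5 and D6) and 3 of untreated WT HSCs (D1, D2 and D3). 5-FU (5-fluorouracil) is an antimetabolite that kills cycling cells, and MEK1, the product of Map2k1, is a kinase that activates ERK. All libraries share the sorted HSC source in bone marrow. The 5-FU dose, the time of sorting, the age of the mice and the promoter or Cre behind the deletion were not stated in the labels. Whether libraries of a group stand for separate mice is likewise unstated, and the p-values below therefore cover only the spread among these libraries, some of which may be technical.

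BCL2 family proteins meet on the outer mitochondrial membrane and set whether it stays sealed. Survival proteins such as BCL2, MCL1 and BCL-XL hold the effectors BAX and BAK in check, BH3-only proteins either block the survival proteins or activate the effectors, and active effectors form pores that release cytochrome c and start the caspase cascade. HSCs depend on MCL1 for survival in mice, and ERK signalling is known to mark the BH3-only protein BIM, encoded by Bcl2l11, for degradation and to stabilise MCL1, steps that act on protein and are not read by RNA sequencing.

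The libraries held between 11416753 and 25380570 reads in genes, except untreated WT D1 with 45384866. Values below are normalized counts, that is reads divided by a size factor per library. For a count of 0, 3 reads were taken as an upper limit, which corresponded to between 0.979 and 4.35 normalized counts. That limit covers counting error only, since reads amplified by PCR without molecular identifiers are not independent molecules. Map2k1, the targeted gene, had 328, 459.9 and 304 normalized counts in KO libraries after 5-FU, against 604, 1634, 584 and 1573 in WT libraries after 5-FU (adjusted p = 0.0339), and 611, 749.8 and 545 in untreated KO libraries, against 905, 1116 and 1766 in untreated WT libraries (adjusted p = 0.460). The KO values lay below the WT values under both conditions, and which exons were deleted was not stated. The call after 5-FU was lost without any 1 of the 3 KO libraries or WT A3 or D4 (adjusted p up to 0.120). It was also lost with the acquisition date, given below, as a term (adjusted p = 0.111). All 12 HSC markers were read in every group. Their summed counts were 10864 to 11768 in KO and 15712 to 20676 in WT libraries after 5-FU, and 24224 to 26615 in untreated KO and 26995 to 33702 in untreated WT libraries. WT libraries A3 and D4 after 5-FU were nearly alike, with a correlation of 0.988 across genes against 0.934 to 0.944 for the other pairs of that group. Pairs of KO libraries after 5-FU were also closer than most, at 0.966 to 0.977. Pairs of untreated KO libraries were at 0.940 to 0.943 and those of untreated WT libraries at 0.912 to 0.925. The reason for this closeness was not tested. All untreated libraries and WT D4 after 5-FU carried an acquisition date of 2015 and the other 5-FU libraries one of 2016.

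After filtering, all 10 genes were among the 12846 tested with limma, with p-values adjusted by Benjamini-Hochberg over all of them. Bmf passed the filter, which asked 3 or more libraries for 10 or more normalized counts, only through WT libraries after 5-FU, the group in which it is high. Only 1 of the 50 tests of these genes, 10 in each of 5 comparisons, passed an adjusted p of 0.05: Bcl2 was higher in WT cells after 5-FU than in untreated WT cells. None passed in KO against WT after 5-FU, in KO against WT untreated, in 5-FU against untreated in KO, or in the genotype by treatment interaction. At an unadjusted p under 0.05 the counts were 2, 1, 1 and 1 in those 4 comparisons, where 24.8%, 1291 of 12846, 20.0% and 16.7% of all tested genes had such a p, and 4 in 5-FU against untreated in WT, where 22.4% had one. The other tool, limma-voom on the recovered reads, called 0 in each of the 5 comparisons. Across all tested genes, 10.9% passed the adjusted threshold in KO against WT after 5-FU, 0.0311% in KO against WT untreated, 5.92% in 5-FU against untreated in KO, 6.68% in 5-FU against untreated in WT and 2.84% in the interaction. A share of 1 in 10 in the WT response is thus near the background of that comparison. The 4 pairwise comparisons share libraries with each other, so their values are given side by side only.

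**Figure D1:**
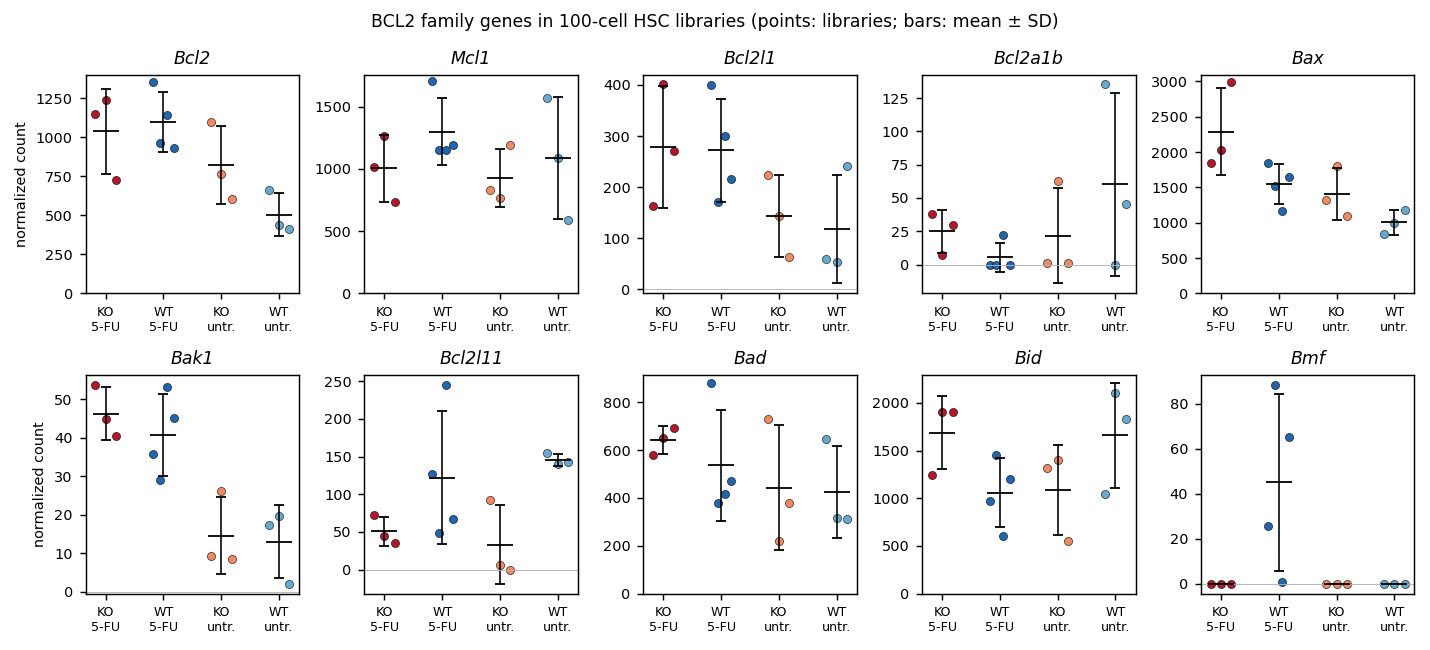
Normalized count (linear axis) of each of the 10 genes in KO and WT libraries after 5-FU and in untreated KO and WT libraries. Points are libraries, horizontal lines are means and bars are the SD (n = 3, 4, 3 and 3). Bcl2 in WT cells spans 935 to 1354 after 5-FU and 412 to 662 untreated, Bmf is read only in WT libraries after 5-FU, and untreated KO libraries spread from 0 to 93.0 for Bcl2l11.

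Bcl2 (ENSMUSG00000057329, chr1:106538178-106714274 in GRCm38, minus strand) encodes the founding survival protein of the family. It had 1148, 1238 and 729.8 normalized counts in KO libraries after 5-FU, 1354, 965, 1143 and 935 in WT libraries after 5-FU, 1097, 764 and 607 in untreated KO libraries, and 662, 436 and 412 in untreated WT libraries. Every WT library after 5-FU lay above every untreated WT library, whereas the KO libraries overlapped between treatments. In WT cells the mean was 1099 ± 193 after 5-FU and 504 ± 138 untreated (SD, n = 4 and 3), 2.18-fold higher, and the difference of the deposited log2-scale values was 0.78 (SE 0.21, 95% interval 0.35 to 1.22, limma adjusted p = 0.0299). These are pools of cells, so more Bcl2 RNA per cell and more cells that carry it cannot be told apart, and 6.09% of its exon bases overlap D630008O14Rik on the opposite strand. The call was lost without WT A2, A3, A4 or D4 after 5-FU, and without untreated WT D2 or D3, where the log2 difference was 0.70 to 0.84 and the adjusted p 0.0538 to 0.0998. With the acquisition date as a term the difference was 0.62 with an adjusted p of 0.400. Within the 2015 libraries the 1 WT library after 5-FU, D4, had 935 normalized counts against at most 662 in untreated WT libraries. D4 was nearly alike WT A3, dated 2016 (correlation 0.988), so it is not an independent check of the date.

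The other comparisons of Bcl2 did not pass. KO cells averaged 1038 ± 271 normalized counts after 5-FU and 823 ± 250.2 untreated (SD, n = 3 each), a log2-scale difference of 0.25 (95% interval -0.22 to 0.71, limma adjusted p = 0.589). Untreated KO cells averaged 1.63-fold the untreated WT level, with a log2-scale difference of 0.46 (95% interval 0.00 to 0.93 with the lower bound just under 0, limma adjusted p = 0.502), and untreated KO D6, at 607, lay below untreated WT D1, at 662. The interaction, which is the KO response minus the WT response, was -0.54 (95% interval -1.17 to 0.10, limma adjusted p = 0.394), so the responses of the genotypes were not shown to differ. The genes whose values followed Bcl2 most closely over the 13 libraries were Hmmr, a spindle-associated protein, Diaph3, a formin, and E2f8, an E2F family repressor, at root mean square distances of 0.437, 0.439 and 0.479 between values scaled to mean 0 and SD 1, against a median of 1.42 over all tested genes. Hmmr averaged 1742 ± 181 normalized counts in KO and 1472 ± 479.8 in WT libraries after 5-FU, and 928 ± 283 in untreated KO and 429 ± 180.3 in untreated WT libraries.

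Cells of other types could carry RNA into a pool, and several marker lists moved with the WT response in which Bcl2 was called. Summed counts of the 7 megakaryocyte and platelet markers read, of 8 listed, were 29442 to 51839.5 in WT libraries after 5-FU against 3477 to 5105 in untreated WT libraries, and 6 of the 7 were called higher. Neutrophil markers, 7 of 8 listed, summed to 446 to 1267 in WT libraries after 5-FU against 131 to 243 in untreated WT libraries, where Lcn2 and Elane were at 0. Of these 7, 2 were called higher, and the means of Ngp and Mpo went the other way. Ngp averaged 66.7 after 5-FU against 85.1 untreated, and Mpo 7.66 against 22.0. The 8 erythroid markers summed to 4506 to 7093 in WT libraries after 5-FU against 1684 to 2598 in untreated WT libraries. Of the 12 HSC markers, 6 were called lower and 1 higher in the same comparison, in which 6.68% of all tested genes were called. The part of these cells in the Bcl2 difference was not tested.

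The Bcl2 promoter is shown because Bcl2 is the gene that passed. The window runs from 250 bases before to 50 bases after the annotated start (RefSeq, GRCm38.p6, chr1:106714241-106714540, minus strand), with GC boxes (GGGCGG, or its reverse complement CCGCCC) in capitals.
Bcl2: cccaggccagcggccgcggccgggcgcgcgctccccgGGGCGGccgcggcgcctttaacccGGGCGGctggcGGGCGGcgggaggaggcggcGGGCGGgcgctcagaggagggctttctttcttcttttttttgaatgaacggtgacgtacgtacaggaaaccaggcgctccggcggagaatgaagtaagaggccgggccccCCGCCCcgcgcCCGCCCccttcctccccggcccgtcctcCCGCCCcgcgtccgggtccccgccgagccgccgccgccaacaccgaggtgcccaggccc
It holds 7 GC boxes, the first 213 bases before the start, and 76% of its bases are G or C, against a median of 52.7% over 32851 promoters. GC boxes were found in 9 of the 16 promoters listed for the 10 genes and in 35.7% of all promoters. These are matches of letters in a window on either strand, not sites shown to be bound.

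Mcl1 (ENSMUSG00000038612, chr3:95658788-95663176, plus strand), a short-lived survival protein that HSCs require in mice, had group means between 927 and 1299 normalized counts. It had 1012, 1268 and 735 normalized counts in KO libraries after 5-FU, 1703, 1152, 1149 and 1190.2 in WT libraries after 5-FU, 828, 763 and 1190.0 in untreated KO libraries, and 1572, 1092 and 593 in untreated WT libraries. All groups overlapped, with WT A2 after 5-FU and untreated WT D1 the highest. The log2-scale difference of KO from WT was -0.29 after 5-FU (95% interval -0.78 to 0.20) and -0.12 untreated (95% interval -0.65 to 0.41). The difference of 5-FU from untreated was 0.08 in KO (95% interval -0.45 to 0.61) and 0.25 in WT (95% interval -0.24 to 0.74), and the smallest limma adjusted p over the 5 comparisons was 0.491. Without untreated WT D3 the WT difference was -0.03.

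Bcl2l1 (ENSMUSG00000007659, chr2:152780668-152831728, minus strand) encodes BCL-XL, the survival protein of platelets and erythroid cells. It had 163, 401 and 271 normalized counts in KO libraries after 5-FU, 399, 171, 301 and 216 in WT libraries after 5-FU, 224, 144 and 63.5 in untreated KO libraries, and 59.4, 53.2 and 241 in untreated WT libraries. In both genotypes the 5-FU libraries were mostly the higher ones, with overlap through untreated KO D4 and untreated WT D3. The mean in WT cells was 2.31-fold higher after 5-FU, a log2-scale difference of 0.56 (95% interval 0.02 to 1.11, unadjusted p = 0.0426, limma adjusted p = 0.205). With each library left out in turn, that fold ran from 1.81 without untreated WT D2 to 4.82 without untreated WT D3. In KO cells the mean was 1.93-fold higher after 5-FU, a log2-scale difference of 0.43 (95% interval -0.15 to 1.01, limma adjusted p = 0.413). KO and WT differed by 0.01 after 5-FU (95% interval -0.53 to 0.55) and by 0.14 untreated (95% interval -0.44 to 0.72).

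Bcl2a1b (ENSMUSG00000089929, chr9:89199209-89207827, plus strand), a copy of the survival gene A1, was read in some libraries only. It had 37.6, 7.07 and 29.9 normalized counts in KO libraries after 5-FU, 0, 0, 21.9 and 0 in WT libraries after 5-FU, 0.921, 63.0 and 1.06 in untreated KO libraries, and 135, 0 and 45.4 in untreated WT libraries. Values at or near 0 and above 20 stood beside each other within 3 of the 4 groups, and every comparison overlapped. The smallest limma adjusted p was 0.249, for 5-FU against untreated in WT (log2-scale difference -0.45, 95% interval -0.93 to 0.03). Of the 50-base stretches of its exons, 79.2% occur in other genes too, 57.6% in Bcl2a1d, and 49.1% of its exon bases overlap Gm29094 on the same strand, so how the authors' counting split reads among these copies is uncertain.

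**Figure D2:**
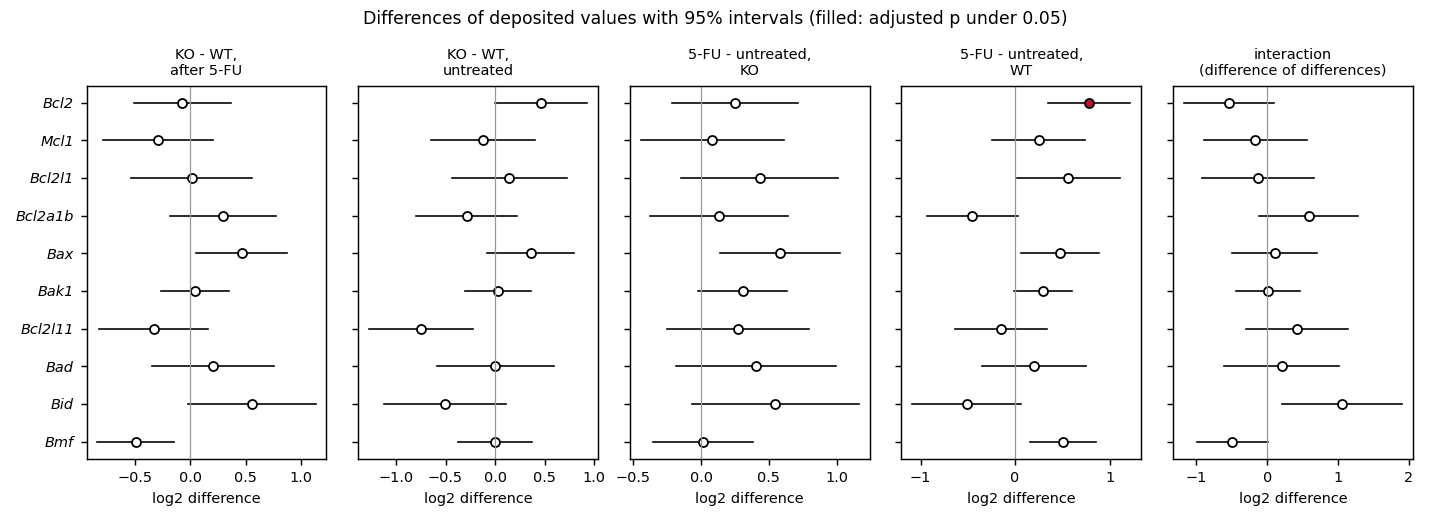
Differences of the deposited log2-scale values for the 10 genes in 5 comparisons, with 95% intervals from limma (points, differences; lines, intervals). The filled point, Bcl2 in 5-FU against untreated in WT at 0.78, is the one with an adjusted p under 0.05, with an interval of 0.35 to 1.22.

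Bax (ENSMUSG00000003873, chr7:45461697-45466898, minus strand), the effector that moves from the cytosol to mitochondria, had the highest level per exon length of the 10 genes in every group. It had 1852, 2026 and 2991 normalized counts in KO libraries after 5-FU, 1843, 1518, 1171 and 1648 in WT libraries after 5-FU, 1316, 1808 and 1092 in untreated KO libraries, and 838, 995 and 1184 in untreated WT libraries. After 5-FU every KO library lay above every WT library, by a margin of less than 10 normalized counts between KO A5 and WT A2. Every KO library after 5-FU also lay above every untreated KO library, while in WT cells the treatments overlapped through WT A4 after 5-FU and untreated WT D3. The KO mean was 2289 ± 614 after 5-FU and the WT mean 1545 ± 283 after 5-FU (SD, n = 3 and 4), a log2-scale difference of 0.46 (95% interval 0.05 to 0.88, unadjusted p = 0.0304, limma adjusted p = 0.149). Against untreated cells, at 1405 ± 366 in KO and 1006 ± 173 in WT (SD, n = 3 each), the difference was 0.58 in KO (95% interval 0.14 to 1.02, limma adjusted p = 0.118) and 0.48 in WT (95% interval 0.06 to 0.89, limma adjusted p = 0.159). None of these passed, and the interaction was 0.10 (95% interval -0.50 to 0.71). Of the Bax exon bases, 12.2% overlap Gm45808 on the same strand.

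Bak1 (ENSMUSG00000057789, chr17:27019810-27029009, minus strand) encodes BAK, the effector that sits in the mitochondrial membrane, and was a low gene. It had 53.7, 44.8 and 40.3 normalized counts in KO libraries after 5-FU, 35.9, 29.0, 53.3 and 45.2 in WT libraries after 5-FU, 9.21, 26.2 and 8.46 in untreated KO libraries, and 17.3, 19.7 and 2.11 in untreated WT libraries. In both genotypes all 5-FU libraries lay above all untreated ones, while KO and WT overlapped under both conditions. The mean was 46.3 ± 6.83 after 5-FU and 14.6 ± 10.01 untreated in KO (SD, n = 3 each), 3.17-fold higher, with a log2-scale difference of 0.31 (95% interval -0.02 to 0.64, limma adjusted p = 0.285). In WT it was 40.8 ± 10.6 after 5-FU and 13.0 ± 9.53 untreated (SD, n = 4 and 3), 3.13-fold higher, with a difference of 0.29 (95% interval -0.02 to 0.60, limma adjusted p = 0.249). The deposited transformation compresses low counts, so these log2-scale differences understate the ratio of the means. With each library left out in turn, the fold in KO ran from 2.62 without untreated KO D6 to 5.24 without untreated KO D5. In WT it ran from 2.21 without untreated WT D3 to 4.20 without untreated WT D2. Bak1 counts rested on 2 to 68 reads a library, and 25.5% of its exon bases overlap Ggnbp1 on the opposite strand, whose reads cannot be told apart from its own because Smart-seq2 does not mark strand.

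Groups that did not overlap were thus found for Bax and Bmf in KO against WT after 5-FU, Bcl2l11 in KO against WT untreated, Bax and Bak1 in 5-FU against untreated in KO, and Bcl2, Bak1 and Bmf in 5-FU against untreated in WT. Among all tested genes, groups did not overlap for 27.0%, 11.5%, 28.8% and 16.7% in those 4 comparisons, against 2, 1, 2 and 3 of the 10 genes. Bmf, in the first and last of these, had passed the filter through the group in which it is high. The median log2-scale difference of the 10 genes was 0.29 in 5-FU against untreated in KO and 0.27 in 5-FU against untreated in WT, where the medians over all tested genes were -0.01 and 0.00. It was 0.03 in KO against WT after 5-FU and 0.00 in KO against WT untreated. All KO libraries after 5-FU were dated 2016 and all untreated KO libraries 2015, so the differences between those groups go with the date too.

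Bcl2l11 (ENSMUSG00000027381, chr2:128126038-128162547, plus strand) encodes BIM, the BH3-only protein that binds all survival proteins and whose loss protects blood cells from cytokine withdrawal in mice. It had 72.6, 44.8 and 35.1 normalized counts in KO libraries after 5-FU, 127, 49.3, 245 and 67.1 in WT libraries after 5-FU, 93.0, 6.54 and 0 in untreated KO libraries, and 155, 140.1 and 143 in untreated WT libraries. The untreated WT libraries were close together, and all 3 untreated KO libraries lay below them with a wide spread. Untreated KO cells averaged 33.2 ± 51.9 and untreated WT cells 146 ± 7.85 normalized counts (SD, n = 3 each), a mean 4.39-fold lower in KO, with a log2-scale difference of -0.75 (SE 0.25, 95% interval -1.27 to -0.23). With all libraries the unadjusted p was 0.00777 and the limma adjusted p 0.318. Without untreated KO D4, which holds most of the KO reads, the KO mean was 3.27 and the fold 44.6. That mean rests on 8 reads in D5 and 0 in D6, where 3 reads correspond to 2.45 and 3.17 normalized counts. The fold of 44.6 is thus a ratio to a value near the limit and not a measure of size. Without untreated KO D5 or D6 the mean was 3.13-fold and 2.93-fold lower in KO. After 5-FU the KO mean was 50.8 ± 19.4 and the WT mean 122 ± 88.6 (SD, n = 3 and 4), a difference of -0.33 (95% interval -0.82 to 0.16, limma adjusted p = 0.416) with overlapping libraries. The 5-FU response was 0.27 in KO (95% interval -0.25 to 0.79) and -0.15 in WT (95% interval -0.64 to 0.34). With the acquisition date as a term the KO response was -0.03.

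The Bcl2l11 promoter at the annotated gene start is shown because FOXO factors are known to induce Bcl2l11 and ETS factors include known targets of ERK. It runs over the same window around the start (RefSeq, GRCm38.p6, chr2:128125788-128126087, plus strand), with the FOXO motif GTAAACA and the ETS motif CCGGAAG, here as its reverse complement, in capitals.
Bcl2l11: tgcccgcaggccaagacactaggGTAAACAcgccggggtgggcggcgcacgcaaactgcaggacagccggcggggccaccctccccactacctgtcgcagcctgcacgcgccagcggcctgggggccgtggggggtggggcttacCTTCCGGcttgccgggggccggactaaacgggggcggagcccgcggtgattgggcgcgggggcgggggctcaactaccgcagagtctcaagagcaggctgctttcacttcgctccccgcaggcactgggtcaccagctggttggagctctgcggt
The FOXO motif lies 227 bases before the start and the ETS motif 105 bases before it. On either strand the FOXO motif was found in 1 of the 16 promoters of the 10 genes and in 3.65% of all 32851 promoters, and the ETS motif in 3 of the 16, those of Bcl2l11, Mcl1 and Bcl2l1, and in 8.86% of all. The AP-1 motif TGACTCA and the CRE motif TGACGTCA were found in 0 of the 16, and in 5.20% and 1.79% of all promoters.

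Bad (ENSMUSG00000024959, chr19:6941861-6951899, plus strand), a BH3-only protein held inactive by 14-3-3 proteins when growth factor kinases phosphorylate it, spread widely within 3 of the 4 groups. It had 578, 652 and 693 normalized counts in KO libraries after 5-FU, 879, 378, 418 and 470.3 in WT libraries after 5-FU, 729.6, 219 and 378 in untreated KO libraries, and 648, 316 and 312 in untreated WT libraries. All groups overlapped, and KO libraries after 5-FU were the closest together. The log2-scale difference of KO from WT was 0.20 after 5-FU (95% interval -0.35 to 0.75) and 0.00 untreated (95% interval -0.59 to 0.59). The 5-FU response was 0.40 in KO (95% interval -0.18 to 0.99) and 0.20 in WT (95% interval -0.35 to 0.75), with a smallest limma adjusted p over the 5 comparisons of 0.462. Of its exon bases, 20.5% overlap Gpr137 on the opposite strand.

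Bid (ENSMUSG00000004446, chr6:120891930-120916853, minus strand) encodes the BH3-only protein that caspase-8 cleaves to link death receptors to mitochondria. It had 1248, 1907 and 1907 normalized counts in KO libraries after 5-FU, 972, 1456, 607 and 1202 in WT libraries after 5-FU, 1315, 1405 and 549 in untreated KO libraries, and 1045, 2104 and 1833 in untreated WT libraries. Its group means were higher in KO after 5-FU and lower in KO untreated, with overlap in both. After 5-FU KO cells averaged 1687 ± 380.2 and WT cells 1059 ± 361 (SD, n = 3 and 4), a log2-scale difference of 0.55 (95% interval -0.02 to 1.13, limma adjusted p = 0.222). Untreated KO cells averaged 1089.7 ± 470.5 and untreated WT cells 1661 ± 550.4 (SD, n = 3 each), a difference of -0.50 (95% interval -1.12 to 0.11, limma adjusted p = 0.596). The interaction was 1.06 on the deposited log2 scale (95% interval 0.21 to 1.90, unadjusted p = 0.0171), and with a limma adjusted p of 0.175 it did not pass. Of its exon bases, 17.7% overlap those of Bcl2l13 on the opposite strand.

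Bmf (ENSMUSG00000040093, chr2:118528757-118549687, minus strand) encodes a BH3-only protein tied to the cytoskeleton through dynein light chains. It had 0 reads in all 3 KO libraries after 5-FU, 25.5, 88.4, 0.951 and 65.1 normalized counts in WT libraries after 5-FU, and 0 reads in all 3 untreated KO and all 3 untreated WT libraries. The values in WT after 5-FU stood for 22, 61, 1 and 98 reads, and the highest 2 were those of A3 and D4, the nearly alike libraries. The WT mean after 5-FU was 45.0 ± 39.2 normalized counts (SD, n = 4). It was 11.8-fold the limit of 3 reads per library, averaged over KO libraries after 5-FU, and 3.45-fold without WT A3 and D4. Set against the same limit in untreated WT libraries it was 17.7-fold, or 5.20-fold without A3 and D4. These folds leave out the spread of the WT libraries and are not lower bounds. The log2-scale difference of KO from WT after 5-FU was -0.49 (95% interval -0.84 to -0.15, unadjusted p = 0.00803, limma adjusted p = 0.0637). The difference of 5-FU from untreated in WT was 0.51 (95% interval 0.16 to 0.85, limma adjusted p = 0.0738). Neither passed. Over 24 alternatives the adjusted p ran from 0.00901 to 0.186 in KO against WT after 5-FU and from 0.0104 to 0.255 in 5-FU against untreated in WT, with the lowest value of each reached without WT A4 after 5-FU, the library with 1 read. Without WT A3 after 5-FU it was 0.186 and 0.201, and with A3 and D4 averaged 0.174 and 0.192. Since Bmf was tested only through the group in which it is high, none of these values stands as support for a difference.

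Levels can be set beside each other only per exon length, in normalized counts per kb. In KO cells after 5-FU the order of mean levels was Bax at 1453, Bid at 475, Mcl1 at 294, Bad at 251, Bcl2 at 113, Bcl2l1 at 60.6, Bcl2a1b at 30.4, Bak1 at 19.2, Bcl2l11 at 6.33 and Bmf at 0. Of the 9 pairs of neighbours in that order, 4 were farther apart than their summed SDs: Bax and Bid, Bad and Bcl2, Bak1 and Bcl2l11, and Bcl2l11 and Bmf. In WT cells after 5-FU Bax was at 980.3, Mcl1 at 379.9, Bid at 298, Bad at 209.8, Bcl2 at 120.0, Bcl2l1 at 59.2, Bak1 at 17.0, Bcl2l11 at 15.2, Bmf at 8.56 and Bcl2a1b at 6.69. Here 3 pairs were farther apart than their summed SDs: Bax and Mcl1, Bcl2 and Bcl2l1, and Bcl2l1 and Bak1. Untreated KO cells ran from Bax at 892 through Bid at 307, Mcl1 at 271, Bad at 173, Bcl2 at 89.9, Bcl2l1 at 31.3, Bcl2a1b at 26.5, Bak1 at 6.07 and Bcl2l11 at 4.13 to Bmf at 0, with Bax above Bid and Bcl2 above Bcl2l1 by more than the summed SDs. In untreated WT cells Bax was at 638, Bid at 468, Mcl1 at 318, Bad at 166, Bcl2a1b at 73.7, Bcl2 at 55.0, Bcl2l1 at 25.7, Bcl2l11 at 18.2, Bak1 at 5.41 and Bmf at 0. In that group Bax did not stand apart from Bid, and only Bcl2l11 above Bak1 and Bak1 above Bmf exceeded the summed SDs. The order of all other neighbours is not firm.

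By role, the effectors held 54.0% ± 6.74 of the summed level per kb of the 10 genes in KO cells after 5-FU, 47.6% ± 2.25 in WT cells after 5-FU, 49.6% ± 6.34 in untreated KO cells and 36.5% ± 6.84 in untreated WT cells (SD, n = 3, 4, 3 and 3). Untreated KO libraries, at 43.7% to 56.3%, and untreated WT libraries, at 29.7% to 43.4%, did not overlap, and neither did WT libraries after 5-FU, at 45.4% to 50.6%, and untreated WT libraries. The summed effector level per kb overlapped between untreated KO libraries, at 696 to 1158, and untreated WT libraries, at 539 to 752. Nearly all of the effector level was Bax. The survival genes held 18.9% ± 5.55 in KO and 27.2% ± 4.48 in WT cells after 5-FU, against 23.9% ± 5.38 in untreated KO and 26.5% ± 11.0 in untreated WT cells. Every KO library after 5-FU was below every WT library after 5-FU in this share, at 12.5% to 22.3% in KO against 23.6% to 32.9% in WT. The summed survival level itself overlapped, at 390 to 602 per kb in KO and 480 to 733 in WT libraries after 5-FU. A share also moves with the level of the other genes in the sum. The BH3-only genes held 27.1% ± 2.11 in KO and 25.3% ± 2.82 in WT cells after 5-FU, against 26.5% ± 7.28 in untreated KO and 37.0% ± 5.39 in untreated WT cells. These shares are descriptions of the 10 chosen genes and carry no test.

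**Figure D3:**
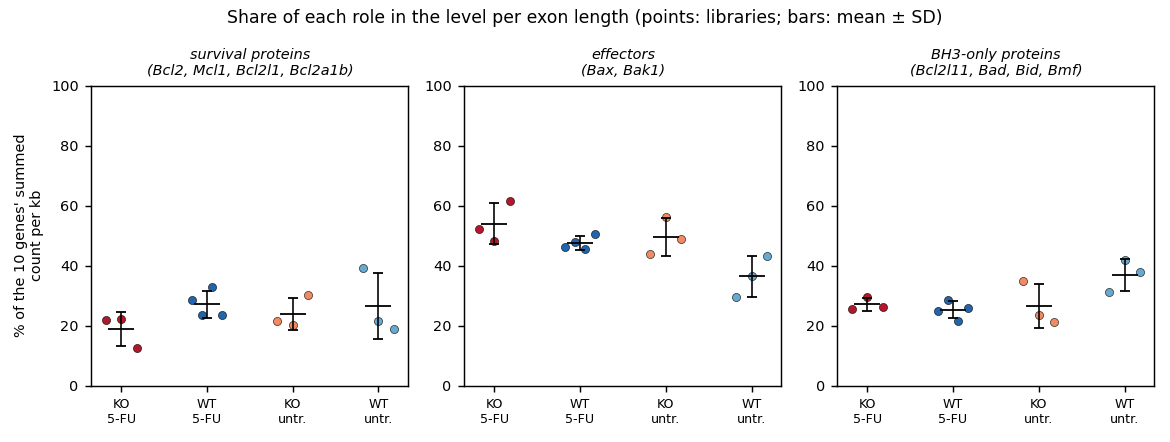
Share (%) of the summed level per kb of the 10 genes held by survival genes, effectors and BH3-only genes in KO and WT libraries after 5-FU and in untreated KO and WT libraries (points, libraries; lines, means; bars, SD; n = 3, 4, 3 and 3). The effector share is lowest in untreated WT libraries, at 29.7% to 43.4%.

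Of 14 other BCL2 family genes listed, 9 were tested, and in KO against WT after 5-FU 2 of the 9 were lower and 0 higher, with a median log2-scale difference of -0.11 against -0.02 over all tested genes. In that comparison 5.50% of all tested genes were lower and 5.36% higher. Bnip3l, a mitophagy receptor that clears mitochondria from maturing red cells, had 1333, 1362 and 1733 normalized counts in KO libraries after 5-FU, 3336, 3035, 3712 and 3119 in WT libraries after 5-FU, 1852, 1616 and 2585 in untreated KO libraries, and 1936, 2101 and 1947 in untreated WT libraries. After 5-FU its mean was 2.24-fold lower in KO than in WT, a log2-scale difference of -0.995 (SE 0.16, limma adjusted p = 0.000651). In WT cells it rose after 5-FU by 0.63 (adjusted p = 0.0238), and the interaction of -0.99 also passed (adjusted p = 0.0298). The WT rise was lost without WT A4 or D4 after 5-FU or untreated WT D3 (adjusted p up to 0.0653), and the interaction without KO A5 or A6 or WT A4 or D4 after 5-FU or untreated KO D4 or D6 (adjusted p up to 0.0930). Bnip3, its relative, had 642, 783 and 697 normalized counts in KO libraries after 5-FU against 838, 1495, 1486 and 1368 in WT libraries after 5-FU, 1.83-fold lower in KO (log2-scale difference -0.62, adjusted p = 0.0308). That call was lost without any of the 3 KO libraries or WT A3, A4 or D4 after 5-FU (adjusted p up to 0.117). Bok, an effector-like member, had 175, 284 and 311 normalized counts in KO libraries after 5-FU, all above the 42.8, 95.6, 77.0 and 72.4 in WT libraries after 5-FU, and did not pass (log2-scale difference 0.70, adjusted p = 0.140). Bcl2l2, Bik, Bbc3, Bcl2l12, Bcl2l13 and Bcl2l14 passed in none of the 5 comparisons, and the remaining 5 listed genes were not analysed here.

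Downstream of the mitochondrial pore, 2 of 14 apoptosome and caspase genes were higher and 0 lower in KO against WT after 5-FU (median log2-scale difference 0.25). Of all tested genes, 5.36% were higher and 5.50% lower in that comparison. Cycs, which encodes the cytochrome c released through the pore and used in respiration, had 2447, 2279 and 2619.8 normalized counts in KO libraries after 5-FU, against 1097, 949, 749 and 1117 in WT libraries after 5-FU, 2.50-fold higher in KO (log2-scale difference 1.08, SE 0.17, limma adjusted p = 0.000619). It also rose in KO after 5-FU relative to untreated KO cells, by 1.13 (adjusted p = 0.00190), and its interaction of 1.06 passed (adjusted p = 0.0305). The interaction was lost without any 1 of the 3 KO libraries or WT A3 or A4 after 5-FU, untreated KO D4 or D6, or untreated WT D1 (adjusted p up to 0.0813). Aifm1, a flavoprotein of the mitochondrial intermembrane space, was 1.93-fold higher in KO than in WT after 5-FU (adjusted p = 0.0187), a call lost without KO A6 or A8 or WT A3 or D4 (adjusted p up to 0.0856). Among 5 inhibitors of caspases, Birc5, which encodes survivin, a protein of dividing cells, rose after 5-FU in KO by 1.12 (adjusted p = 0.00302) and in WT by 0.81 (adjusted p = 0.0136), the WT call being lost without untreated WT D3 (adjusted p = 0.0663). It was also 1.64-fold higher in KO than in WT after 5-FU (adjusted p = 0.0279), lost without any 1 of the 3 KO libraries or WT A3 or D4 (adjusted p up to 0.0938). With the acquisition date as a term, the 5-FU responses of Bnip3l in WT, Cycs in KO and Birc5 in both genotypes no longer passed (adjusted p of 0.312, 0.131, 0.305 and 0.221). Nor did those of Ywhaz (0.267 in KO and 0.142 in WT), Dynll1 (0.179 in KO and 0.241 in WT) and Ywhae (0.269 in KO). None of the 9 death receptor genes passed in any of the 5 comparisons.

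Among 21 kinases, ligases and binding partners of BCL2 proteins, 3 were higher and 0 lower in KO against WT after 5-FU (median log2-scale difference 0.19). The share over all tested genes was 5.36% higher and 5.50% lower. Ywhae, a 14-3-3 protein that binds phosphorylated BAD, had 9748, 11576 and 12572 normalized counts in KO libraries after 5-FU against 5623, 5489, 5668 and 6413 in WT libraries after 5-FU, 1.95-fold higher (limma adjusted p = 0.000263). Dynll1, the dynein light chain that binds BIM, was 1.58-fold higher (adjusted p = 0.0250) and Vdac2, the membrane channel that holds BAK, 1.54-fold higher (adjusted p = 0.0176). The Dynll1 call was lost without any 1 of the 3 KO libraries or WT A3 or A4 (adjusted p up to 0.107) and the Vdac2 call without KO A6 or A8 or WT D4 (adjusted p up to 0.0816). Ywhaz, another 14-3-3 protein, rose after 5-FU by 0.81 in KO (adjusted p = 0.00689) and by 0.65 in WT (adjusted p = 0.0161), the WT call being lost without WT A3 or D4 after 5-FU or untreated WT D3 (adjusted p up to 0.0569). Dynll1 rose after 5-FU too, by 1.07 in KO (adjusted p = 0.00196) and by 0.59 in WT (adjusted p = 0.0371). Its WT call was lost without KO A5 or A6 or WT A2 or D4 after 5-FU or untreated WT D2 or D3 (adjusted p up to 0.144). Ywhae rose by 0.60 in KO (adjusted p = 0.0150). That call was lost without KO A6 or A8 after 5-FU or untreated KO D4 (adjusted p up to 0.0816). Of 13 tested transcription factors of BCL2 family genes, 3 were lower and 0 higher in KO against WT after 5-FU, beside 5.50% and 5.36% of all tested genes. Ddit3, the stress factor CHOP that induces Bcl2l11 in mouse cells, had 161, 105 and 254 normalized counts in KO libraries after 5-FU against 751, 1184, 821 and 1209.5 in WT libraries after 5-FU, 5.72-fold lower (log2-scale difference -1.47, adjusted p = 0.000220). Stat5b and Rela were 2.39-fold and 1.55-fold lower in KO after 5-FU (adjusted p = 0.0140 and 0.0497), the call of Stat5b being lost without KO A5 or A8 (adjusted p up to 0.0766) and that of Rela when any 1 library other than untreated WT D1 or D3 was left out (adjusted p up to 0.202). The calls of Bnip3l, Cycs, Ywhae and Ddit3 in KO against WT after 5-FU held in all 25 alternatives. With the acquisition date as a term, Bnip3, Aifm1, Birc5, Vdac2 and Rela no longer passed in that comparison. Their adjusted p was then 0.0843, 0.0680, 0.0664, 0.0556 and 0.0727. Dynll1 and Stat5b still passed (adjusted p of 0.0475 and 0.0298). The Bnip3l interaction was also lost with that term (adjusted p = 0.0546).

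The same comparison, KO against WT after 5-FU, had 6 of 7 megakaryocyte and platelet markers lower, where 5.50% of all tested genes were lower. Their sums were 4166 to 7149.7 in KO libraries against 29442 to 51839.5 in WT libraries. Neutrophil markers summed to 36.3 to 42.9 in KO against 446 to 1267 in WT libraries after 5-FU, and 3 of the 7 were called lower. Lcn2 and Mpo were at 0 in KO, but Mpo was also low in WT (mean 7.66, libraries from 0 to 27.8). Sums of the HSC, monocyte and macrophage, mast cell and basophil, B cell, and T and NK cell markers also lay lower in KO without overlap. The erythroid sums overlapped. The part of cells with such markers in the differences of Bnip3l, Cycs, Ywhae, Ddit3 and Bmf was not tested.

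**Figure D4:**
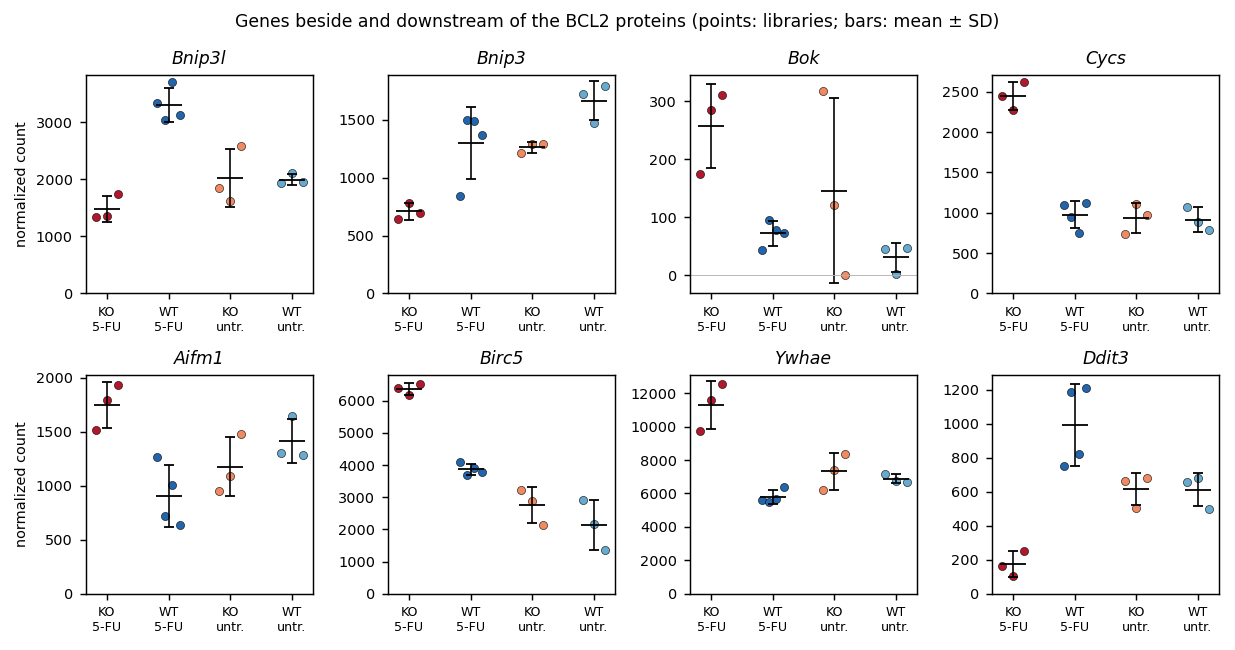
Normalized count (linear axes) of 8 genes beside and downstream of the BCL2 proteins in KO and WT libraries after 5-FU and in untreated KO and WT libraries (points, libraries; lines, means; bars, SD; n = 3, 4, 3 and 3). Cycs spans 2279 to 2619.8 in KO and 749 to 1117 in WT libraries after 5-FU, and Ddit3 105 to 254 in KO and 751 to 1209.5 in WT libraries after 5-FU.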

How the data were processed

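The deposited table holds log2-scale values for 13 libraries that the authors made with DESeq2 by variance stabilization, per the submitters' processing notes, which also name Trimmomatic, Bowtie 1.1.1 and mm10. Neither the counting tool nor its annotation or strand setting is given in the sources used here. The transformation was inverted from the lowest steps of each library, with 7.6484 as the value at 0, and gave reads that were whole within 0.1 for 100% of genes in every library. Untreated WT D1 showed an added constant of 2 where the other libraries showed 1. Symbols came from GENCODE M21 for 13069 identifiers, and 132 had none. The deposited log2-scale values were fitted in limma 3.58.1 (R 4.3.3) with a mean-variance trend and 1 mean per group over all 13 libraries (residual df 9, prior df 7.67). The test took the 12846 genes that reached 10 normalized counts in 3 or more libraries, with Benjamini-Hochberg adjustment over them for each comparison and a threshold of 0.05. An adjusted p given without a tool is from this fit. Fold changes are ratios of mean normalized counts.

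The genes and lists were chosen with earlier results of these data known. The 10 genes are named in every comparison, other lists by up to 4 genes with the smallest adjusted p among those that passed, all tested BCL2 family genes, and the 3 genes nearest to a member that passed. Alternatives were no filter, a minimum of 50, pseudocounts of 0.5, 1 and 5 on normalized counts, quantile and TMM scaling, limma-voom on recovered reads, only the libraries of a comparison, the acquisition date as a term, A3 and D4 averaged, 1 flowcell, and each library left out. The method was tested on simulated data. Motifs were searched in RefSeq promoters. Tables and plots were made with matplotlib 3.10.9, pandas 2.3.3, numpy 2.4.6 and scipy 1.17.1 under Python 3.11.15.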

Additional observations from a re-analysis of the deposited data

Results flagged for a closer look

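In 4 of 30 sets of 4 WT libraries after 5-FU, 1 set per named gene, a single library stood far from the rest, where chance gives about 1 in 20 for independent libraries. That rate does not allow for WT A3 and D4 being nearly alike (correlation 0.988). The 30 sets also share the same 4 libraries and are not independent of each other. For Bcl2a1b, 3 of the 4 libraries had 0 reads, so the rate does not hold for that set. For Mcl1 the gap of A2, the highest library, to its nearest neighbour was 0.9136 of the whole range of deposited values. For Bcl2a1b the gap of A4, the only library of that group with reads, was 0.9014 of the range. Among the other family genes, A2 was the lowest library for Bnip3, with a gap of 0.8375 of the range, and for Bcl2l14, with a gap of 0.9134.

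For none of the 10 genes did the interaction pass, so their responses to 5-FU in KO and WT cells were not shown to differ. Of the genes around them, the interaction (KO response minus WT response, log2 scale) passed for Bnip3l at -0.9886 (limma adjusted p = 0.0298), Cycs at 1.0613 (adjusted p = 0.0305), Ywhae at 0.8352 (adjusted p = 0.0256) and Ddit3 at -1.4771 (adjusted p = 0.0151). The Ywhae interaction was lost without KO A6 or A8 or WT A3 after 5-FU or untreated KO D4 (adjusted p up to 0.0804), and that of Ddit3 without KO A6 (adjusted p up to 0.0523).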

How the results depend on the processing

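The Bcl2 call in 5-FU against untreated in WT was kept in 15 of 25 alternatives, with log2-scale differences of 0.62 to 1.14 and adjusted p-values of 0.0214 to 0.400. In that comparison 0 of the 10 genes passed with limma-voom on recovered reads (Bcl2 adjusted p = 0.0509), with only the libraries of the comparison (0.0643), with the acquisition date as a term (0.400) and with A3 and D4 averaged (0.0524), and 0 to 1 passed when each library was left out in turn. Without WT A4 the gene that passed was Bmf, not Bcl2. Leaving out untreated WT D1 and WT D4 after 5-FU, the libraries that the labels place wholly or partly on a second flowcell, an alternative chosen after seeing the data, kept Bcl2 (log2-scale difference 0.97, adjusted p = 0.0383). In KO against WT after 5-FU, 1 gene, Bmf, passed with a pseudocount of 0.5 (adjusted p = 0.0374) or 1 (adjusted p = 0.0425), though it was tested only through the group in which it is high, and 0 to 1 passed when each library was left out. The Bcl2l11 difference in 5-FU against untreated in KO was -0.0271 with the acquisition date as a term, against 0.27 without it, and that of Mcl1 in 5-FU against untreated in WT ran from -0.0271 to 0.491 over the left-out libraries, against 0.25 with all of them. The cause of these changes was not tested. The acquisition date and 5-FU cannot be told apart in KO cells except through WT D4, the 1 library of the 5-FU groups dated 2015. WT D4 was nearly alike WT A3, dated 2016. No paired analysis was possible because the groups share fewer than 2 replicate numbers. TMM and quantile scaling moved the median of all genes by at most 0.0183. Bak1, Bmf and Bcl2a1b were too low for the minimum of 50 to give a value. Depth limits Bmf, Bcl2a1b, Bak1 and Bcl2l11, whose libraries include counts of 0 to 8 reads.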
